A study of Mus musculus with 72 samples.

Results

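The liver transcriptome of mice 48 h after a whole body X-ray dose of 4 Gy was compared with that of sham-irradiated mice. The members are the 6 liver mRNA arrays labelled with these doses, out of 18 liver mRNA arrays and 72 arrays in the series, and every probe that is not a control spot. All mice were female C57BL/6 J animals of 6 to 8 weeks. The irradiated mice (4, 14 and 24) received a single surface dose at 1.05 Gy/min inside a plastic container, and the controls (mice 1, 11 and 21) were placed in the same kind of container and received 0 Gy. Total RNA of the liver was measured on Agilent arrays with a single dye. Each mouse had its own array, so n = 3 separate animals per dose. Levels are log2 normalized intensities of 1 probe, and a level of 1 probe is never compared with that of another. The 2 Gy mice (3, 13 and 23) and the 8 Gy mice (5, 15 and 25) of the same study, treated and sampled in the same way, serve to place the 4 Gy response between its neighbouring doses.

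Ionizing radiation breaks DNA, and the kinases that sense the breaks stabilise p53, a transcription factor that switches on genes of cell cycle arrest, repair and cell death. The adult liver divides little, but it is perfused with blood and holds lymphocytes, macrophages and other cells that differ widely in how well they survive radiation. Red cell precursors in marrow and spleen and naive B cells are among the most radiosensitive cells of the body, and young red cells still carry globin mRNA in the circulation. In whole tissue, fewer cells of a type and less RNA per cell cannot be told apart, and this holds for every cell type below.

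The 6 arrays were of similar quality. Between 48.8% and 54.0% of the spots were well above background in the controls and between 46.6% and 52.0% at 4 Gy, with no saturated spot. All 15 hepatocyte markers tested, Alb and Apoa1 included, were well above background in all 6 mice. Control mouse 1 stood apart in transcripts of another organ. Scgb1a1, a secretory protein of airway cells, was at 10.81 there, at 9.03 and 5.64 in control mice 11 and 21, and at 5.29, 6.68 and 7.14 at 4 Gy. Sftpc, a surfactant protein of the lung, was at 9.02 in control mouse 1 and between 5.29 and 6.99 in the other 5 mice. None of the 6 lung epithelial markers tested was called, and their summed linear intensity ranged from 3179 to 5732 in the controls and from 4366 to 4777 at 4 Gy.

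The arrays of the controls lay on a first slide and those of the 4 Gy mice on a second, so within the 6 arrays slide and dose cannot be told apart. The 2 Gy group spans both slides, with mice 3 and 13 beside the controls and mouse 23 beside the 4 Gy mice. Of the 15 genes with the largest falls at 4 Gy, all 15 were nearer the 4 Gy mean than the control mean in both mice 3 and 13, and so were 8 of the 15 with the largest rises. When slide was fitted beside dose, an estimate that rests on the 2 Gy arrays alone, 70 probes were called in place of 362. Of the 103 genes that follow as called, all 103 kept their direction under that term, the median ratio of the new to the old log2 difference was 0.987, and 13 kept their call. These 13 were Cdkn1a, Phlda3, Eda2r, the 5 adult globins, Serpina9, Zdhhc22, Fcmr, Chil3 and Melk.

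Of 38362 probes tested, 362 (0.944%) were called at 4 Gy, with an absolute log2 difference above 1 and a limma adjusted p below 0.05. The share called higher was 0.321% (123 probes) and the share called lower was 0.623% (239 probes). The falls were also the larger changes: 50 probes fell by more than 4-fold and 9 by more than 16-fold, against 13 and 1 that rose as far. Scaled to the 75th percentile of the processed signal instead, 299 probes were lower and 248 higher, so the share of falls depended on the scaling. With each gene represented by its brightest tested probe, 224 of 18164 genes (1.23%) were called, 73 higher (0.402%) and 151 lower (0.831%). The values of the 3 irradiated mice and the 3 controls did not overlap for 6641 genes (36.6%). The same held for 361 of the 362 called probes, so separate groups add little to a call. The median log2 difference over all genes was -0.012. The number of calls depended on single mice, and was 190 without control mouse 11, 211 without 4 Gy mouse 24, 240 without mouse 14 and 241 without mouse 4.

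**Figure D1:**
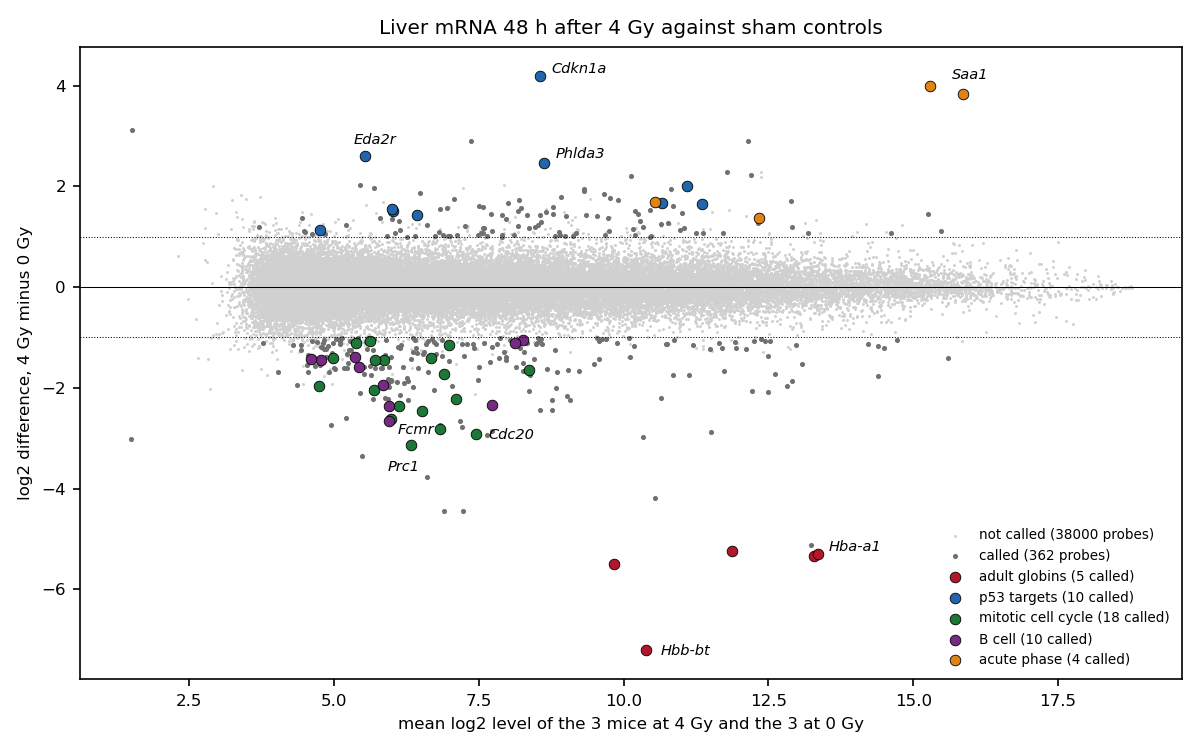
Each point is 1 probe, with the mean log2 level of the 6 mice on the x axis and the log2 difference between 4 Gy and 0 Gy on the y axis; dotted lines mark the fold threshold, and coloured points are called members of 5 gene groups. The globins lie 5 to 7 units below the line of no change, below all other coloured points, and Cdkn1a, Saa1 and Saa2 lie about 4 units above it.

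Among the called genes the largest rise was that of Cdkn1a, which encodes p21, the inhibitor of cyclin-dependent kinases through which p53 halts the cell cycle. Its level was 5.94, 6.75 and 6.70 in the controls and 10.67, 10.62 and 10.68 in the irradiated mice. The groups were far apart, and the 4 Gy mice differed from each other by less than the controls did. This is an 18.4-fold rise (log2 difference 4.20, SE 0.24, limma adjusted p = 8.35e-07), and a dimmer second probe of the gene gave 2.03. The 250 bases upstream of the distal annotated start of Cdkn1a are shown because 2 stretches in them match the half-site that p53 binds as a dimer (the sequence from RefSeq, GRCm38.p6, chr17:29090729-29090978, plus strand), and the matches are in capitals.
Cdkn1a: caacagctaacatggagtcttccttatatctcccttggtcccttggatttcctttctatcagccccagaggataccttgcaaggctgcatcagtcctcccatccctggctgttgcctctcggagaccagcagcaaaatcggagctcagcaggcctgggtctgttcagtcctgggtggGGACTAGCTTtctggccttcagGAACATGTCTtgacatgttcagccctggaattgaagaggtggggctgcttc
The matches lie between 73 and 42 bases before this start, and the window before the gene's other start in the table holds 0 matches. The half-site was searched on both strands in the 250 bases before 32851 annotated mouse starts of 27025 genes, and 7.13% of the starts and 8.2% of the genes hold it before at least 1 start. Counted by gene, it stands before a start of 7 of the 18 arrest genes in the table, of 3 of 12 cell death genes and of 2 of 21 repair genes. Among called members only, the counts are 2 of 5, 0 of 1 and 0 of 1, and Phlda3 and Eda2r hold no match. Such a match describes the letters only, and whether p53 binds there was not tested.

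Phlda3, a p53 target that restrains the kinase Akt, was as clearly separated. It was at 7.46, 7.41 and 7.28 in the controls and at 9.71, 9.85 and 10.00 at 4 Gy, a 5.55-fold rise (log2 difference 2.47, SE 0.14, limma adjusted p = 8.35e-07). Of the 21 p53 targets of growth arrest and feedback tested, 6 rose and none fell, and 19 had a positive difference, with a median of 0.75. Ddit4, an inhibitor of mTOR, rose 4.05-fold from 10.62, 10.13 and 9.51 to 11.31, 12.04 and 12.97. Ccng1, cyclin G1, rose 3.19-fold from 9.98, 9.51 and 9.97 to 11.46, 11.47 and 11.56. In both genes the lowest irradiated mouse lay above the highest control. Trp53inp1, which amplifies p53 activity and takes part in autophagy, rose 3.14-fold. Zfp365, which protects fragile sites during replication, was not well above background in the controls and rose at least 2.06-fold, a call that was lost in each of the 6 fits that left out 1 mouse. Mdm2, the ligase that returns p53 to low levels, had an adjusted p of 0.0057 with a log2 difference of 0.89, under the fold threshold. Plk2 (0.06), Gtse1 (0.08) and Mdm4 (0.14) were among the members that did not pass.

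**Figure D2:**
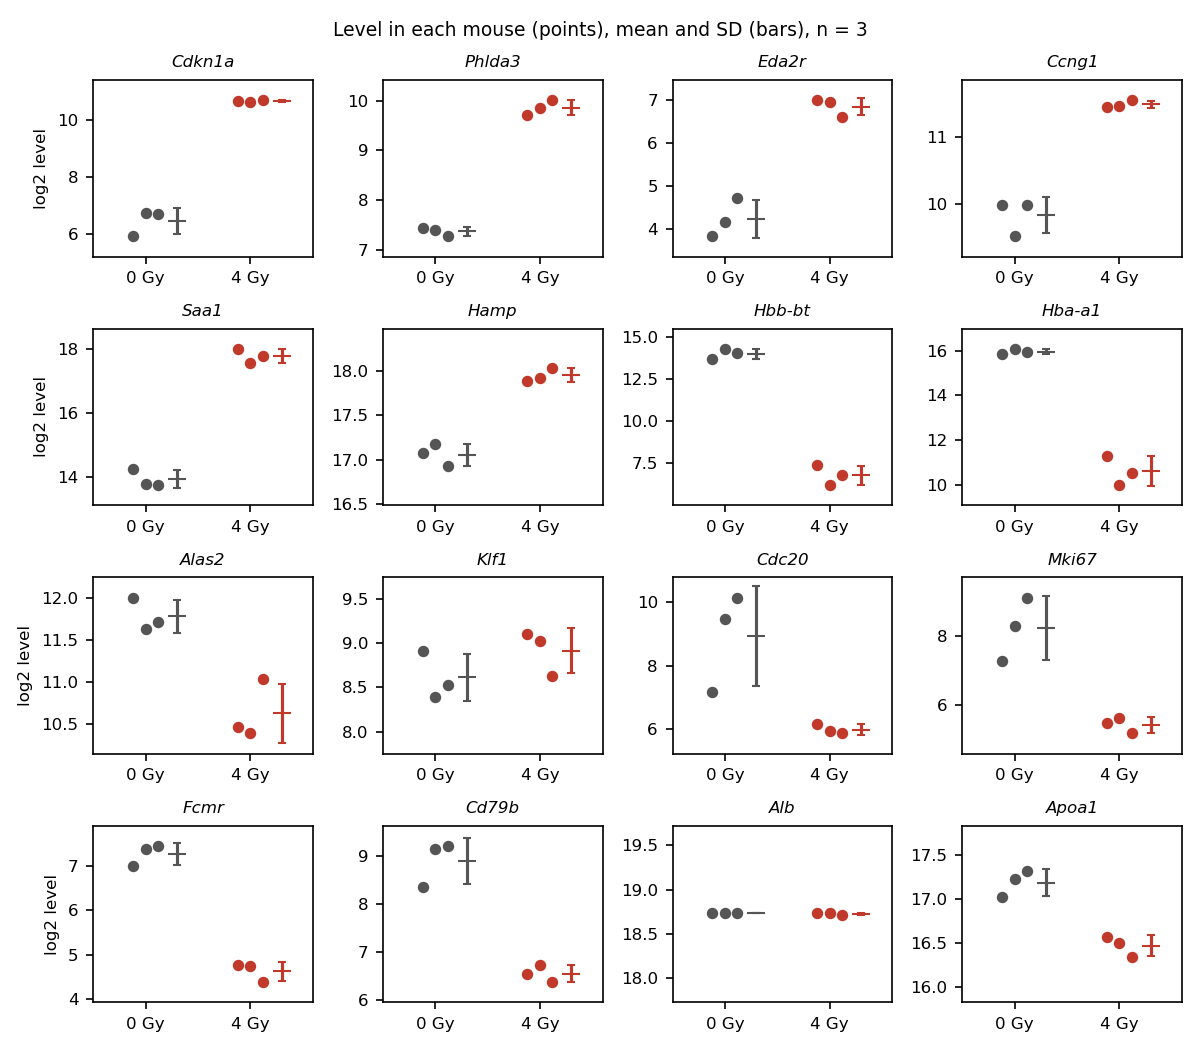
The log2 level of 16 genes is plotted for each of the 3 control mice (grey) and the 3 mice at 4 Gy (red), with the mean and SD beside the points. The groups are apart in 14 of the panels, by about 4 units for Cdkn1a and 7 for Hbb-bt, while Klf1 and Alb overlap; Alb lies at the top of the scale, where quantile normalization sets the value.

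Of 16 cell death targets of p53, 2 were called, both higher, against 0.402% of all genes called higher. In all, 5 of the 16 had a limma adjusted p below 0.05, and the median difference of 0.08 lay near that of all genes. Eda2r, the receptor for ectodysplasin A2, was not well above background in any control (3.84, 4.16 and 4.71) and was so in every irradiated mouse (6.98, 6.94 and 6.60). The rise was at least 5.36-fold (limma adjusted p = 0.00034), and it held without any 1 mouse. Its log2 difference was 2.60, and 1.25 with an offset of 50 in the background correction. Tnfrsf10b, the mouse TRAIL receptor, rose 2.69-fold from 5.45, 5.68 and 6.03 to 7.05, 7.16 and 7.24, but its call was lost without control mouse 1 or 11 or without any 1 of the irradiated mice. The mitochondrial members stayed under the fold threshold. Bax, which permeabilises the outer mitochondrial membrane, had a log2 difference of 0.67 (adjusted p = 0.020), whereas Bbc3 had -0.74 (adjusted p = 0.081), Pmaip1 0.00 and the receptor Fas 0.07.

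Among 27 p53 targets of repair, metabolism and signalling, Ddias and Mybl1 rose and the median was 0.26. Both calls were lost with an offset of 50 in the background correction, which damps dim probes and gave log2 differences of 0.87 for Ddias and 0.85 for Mybl1. Ddias, an inhibitor of apoptosis after DNA damage, rose 2.92-fold from 5.04, 5.23 and 5.43 to 6.71, 6.89 and 6.75. Mybl1, a relative of the Myb transcription factors, rose 2.87-fold from 4.78, 5.57 and 5.41 to 6.46, 6.83 and 7.03. Polk, a polymerase that copies past damaged bases, missed the fold threshold with 0.99 (adjusted p = 0.0009), and Gdf15, a stress cytokine, differed by 1.62 with an adjusted p of 0.28. The p53 genes themselves did not pass, with -0.14 for Trp53 and 0.71 for Trp73 (adjusted p = 0.045, under the fold threshold). None of 38 genes of DNA damage signalling and repair was called, and their median was -0.10. Bard1, the partner of BRCA1, came nearest at -0.97 (adjusted p = 0.016).

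The adult globins showed the largest falls of all genes, with 5 of 5 tested lower. Hbb-bt, a beta chain, was at 13.69, 14.28 and 14.01 in the controls and at 7.36, 6.21 and 6.77 at 4 Gy, a 148-fold fall (log2 difference -7.21, SE 0.45, limma adjusted p = 1.4e-06). Hba-a1, an alpha chain, was at 15.85, 16.08 and 15.96 in the controls and at 11.30, 10.00 and 10.55 at 4 Gy, a 40.7-fold fall, and its second probe gave -5.13. Hbb-b2 fell 45.4-fold, Hba-a2 39.6-fold and Hbb-b1 37.8-fold. No irradiated mouse came within 4 units of a control in any of the 5, and mouse 14 was the lowest and mouse 4 the highest of the irradiated mice in each. The genes within each chain family are near-identical in sequence, so the probes may share signal. The 5 are not independent and may stand for fewer than 5 distinct transcripts. The call of all 5 held without any 1 mouse and with slide fitted beside dose. At 2 Gy Hbb-bt was at 9.10 and 8.23 in the mice on the controls' slide and at 9.10 in the mouse on the second slide.

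Other red cell transcripts did not follow at that size. Alas2, the enzyme that starts haem synthesis in erythroid cells, fell 2.22-fold from 12.00, 11.63 and 11.71 to 10.47, 10.39 and 11.03. Slc4a1, the anion exchanger band 3 of the red cell membrane, fell at least 2.38-fold from 5.48, 6.16 and 6.09 to 4.81, 4.67 and 4.49. Both were separated between the groups. The call of Slc4a1 was lost without control mouse 11 or 21 or any 1 irradiated mouse. Of 13 haem synthesis genes, 13 erythroid regulators and 14 red cell membrane and blood group genes, 1 in each list fell and none rose, and the medians were 0.00, -0.16 and 0.09. Klf1, the transcription factor that drives adult beta globin, was at 8.91, 8.40 and 8.53 in the controls and at 9.10, 9.03 and 8.63 at 4 Gy (adjusted p = 0.45). Hemgn (0.29), Car1 (0.49) and Tal1 (-0.03) did not pass either, and 7 of the 14 membrane genes were not well above background in any control. The 2 embryonic globins tested lay near background in both groups. For Hbb-bt, Hba-a1 and Hba-a2, which have a promoter in the table, the letters AGATAA and CACACCC (both strands) were found in 0 of 3, against 11.4% and 7.9% of all genes. Only these exact letters were searched, so shorter or variant forms were not counted.

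Genes that handle iron and haem in the liver moved in 2 places. Of 20 genes of iron handling, Id1 and Smad7 rose, both targets of the BMP pathway that also controls hepcidin. Id1 rose 3.86-fold from 9.54, 9.76 and 10.25 to 11.71, 12.03 and 11.65, and Smad7 2.96-fold, a call that was lost without any 1 of the 6 mice. Hamp, which encodes hepcidin, the hormone that blocks iron export, was at 17.07, 17.17 and 16.92 in the controls and at 17.89, 17.93 and 18.04 at 4 Gy. The 2 groups did not overlap and its adjusted p was 0.00057, but the log2 difference of 0.90 was under the fold threshold. The paralog Hamp2 differed by -0.01 and the ligand Bmp6 by 0.04. None of 9 genes of haem breakdown and scavenging was called, with 0.15 for Hmox1, haem oxygenase.

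Many mitotic genes fell. Of 30 tested, 18 fell and none rose, 28 had a negative difference, and the median was -1.42. Their summed linear intensity was between 2457 and 7571 in the controls and between 1367 and 1503 at 4 Gy, where 14 of the 30 were not well above background in any mouse. Cdc20, the activator of the anaphase-promoting complex, was at 7.17, 9.47 and 10.12 in the controls and at 6.18, 5.94 and 5.88 at 4 Gy, a 7.57-fold fall. A second probe of Cdc20 gave a smaller log2 difference of -1.86. Mki67, the antigen of proliferating cells known as Ki-67, was at 7.28, 8.31 and 9.13 in the controls and at 5.48, 5.63 and 5.17 at 4 Gy, a 7.04-fold fall. Both show the same order among the controls, with mouse 1 lowest and nearest to the irradiated mice. Prc1, which bundles microtubules in the spindle midzone, fell at least 8.84-fold, and Ccnb1, cyclin B1, at least 6.15-fold. A second probe of Prc1 gave a log2 difference of -1.68. Ccna2, cyclin A2, fell 5.49-fold, Top2a, which untangles DNA, at least 5.14-fold, and Birc5, survivin, 3.12-fold. Cdk1, the kinase that cyclin B activates, differed by 0.01 and Ndc80, a kinetochore protein, by 0.01. Ccnb1-ps, a pseudogene of cyclin B1 that may share signal with it, fell at least 8.18-fold.

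The count of falls depended on single mice. It was 25 of the 30 without control mouse 1, 8 without control mouse 11 and 7 without control mouse 21, and 12, 8 and 10 without irradiated mice 4, 14 and 24. It was 10 with an offset of 50 in the background correction. Prc1, Mki67, Ccna2, Top2a, Birc5 and Melk kept their call without any 1 mouse, while Cdc20 and Ccnb1 did not. With slide fitted beside dose, Melk alone of the 18 was called, although all 18 remained lower with a median of -1.58. Of the 18, 16 lay nearer the 4 Gy mean than the control mean in both 2 Gy mice on the controls' slide. The 31 replication genes moved less, with 3 lower and a median of -0.28. Uhrf1, which copies DNA methylation to the new strand, fell 4.44-fold, Mcm5, part of the replicative helicase, 2.78-fold and Gins2 2.54-fold. The count was 0 without control mouse 11 and 1 without control mouse 21 or any 1 irradiated mouse. Pcna, the sliding clamp, differed by 0.08.

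Promoters of mitotic genes often carry CCAAT boxes and the cell cycle homology region, whose core reads TTTGAA. The 250 bases before the start of Cdc20 (chr4:118437344-118437593, minus strand) and Ccnb1 (chr13:100786487-100786736, minus strand), from RefSeq on GRCm38.p6, are shown as examples from the called mitotic genes, with CCAAT and TTTGAA in capitals.
Cdc20: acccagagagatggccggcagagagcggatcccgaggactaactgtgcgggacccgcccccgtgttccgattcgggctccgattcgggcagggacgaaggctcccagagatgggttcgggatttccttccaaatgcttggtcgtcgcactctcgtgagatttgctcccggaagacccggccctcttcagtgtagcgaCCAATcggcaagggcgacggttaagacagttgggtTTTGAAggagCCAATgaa
Ccnb1: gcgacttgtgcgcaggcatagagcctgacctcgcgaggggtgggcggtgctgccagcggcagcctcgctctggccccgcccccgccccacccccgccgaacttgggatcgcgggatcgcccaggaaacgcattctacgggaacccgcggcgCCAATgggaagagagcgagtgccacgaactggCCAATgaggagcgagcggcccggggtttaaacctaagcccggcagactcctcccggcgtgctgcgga
Counted by gene and on either strand, CCAAT stood before a start of 20 of the 24 mitotic genes in the table, 13 of the 15 called ones included, and of 37.5% of all genes (33.8% of all starts). TTTGAA stood before a start of 9 of the 24, 5 of the 15 called ones included, and of 18.3% of all genes (16.0% of all starts). Cdk1, which was not called, holds both. These counts are a description, and no test was made of them.

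B cell genes were the other large group of falls. Of 19 tested, 10 fell and none rose, with a median of -1.05. Fcmr, the receptor for IgM, was at 7.002, 7.39 and 7.45 in the controls and at 4.76, 4.73 and 4.38 at 4 Gy, where no mouse was well above background. Its fall of at least 6.24-fold (limma adjusted p = 5.3e-06) held without any 1 mouse and with slide fitted beside dose. Cd79b, the signalling chain of the B cell receptor, fell 5.05-fold from 8.35, 9.13 and 9.19 to 6.54, 6.74 and 6.38. Ms4a1, which encodes CD20, fell at least 5.13-fold, but a second, dimmer probe of it gave -0.06. Pou2af1, a coactivator of immunoglobulin genes, fell 3.87-fold and Fcer2a, the low-affinity IgE receptor CD23, at least 3.02-fold. Cxcr5, Spib, Fcrla, Ly6d and Blnk fell by between 2.08-fold and at least 2.61-fold. In all 10 the groups were apart. Pax5, the factor that fixes B cell identity, differed by 0.24, Cd22 by -0.01 and Cd79a by -0.64, none of which passed. The summed linear intensity of the 19 was between 2906 and 3699 in the controls and between 1885 and 2141 at 4 Gy, and 9 were not well above background in any irradiated mouse. The count was 6 without control mouse 11 and 7 to 9 without any other 1 mouse, and 4 with an offset of 50. Of the 10, 7 lay nearer the 4 Gy mean in both 2 Gy mice on the controls' slide.

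Serpina9, a serine protease inhibitor that germinal centre B cells express, had the largest fall after the globins. It was at 8.97, 9.62 and 8.76 in the controls and at 4.76, 4.81 and 4.43 at 4 Gy, where it was not well above background, so that the fall was at least 21.8-fold (limma adjusted p = 9.7e-05). Serpina4-ps1, a pseudogene of the same serpin cluster on chromosome 12, fell 7.65-fold, a call that was lost without control mouse 11 or irradiated mouse 14. Among the 3 plasma cell genes tested, Derl3, which helps export misfolded proteins from the endoplasmic reticulum, fell 4.47-fold from 9.86, 10.19 and 10.25 to 8.02, 8.18 and 7.62, although its call was lost without any 1 mouse. Mzb1 (-0.31) and Jchain (-0.13), which antibody-secreting cells use, did not pass.

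Of 19 T cell genes, 2 fell, and 18 had a negative difference, with a median of -0.37. Cd8b1, a chain of the CD8 coreceptor, fell 3.95-fold from 6.44, 7.50 and 6.89 to 4.70, 4.89 and 5.29. Ccr7, which guides naive lymphocytes to lymph nodes, fell 3.57-fold from 6.67, 6.96 and 7.08 to 4.92, 5.26 and 5.03. Both calls held without any 1 mouse. Cd3e (-0.19), Cd4 (-0.62) and Cd8a (-0.81) did not pass. None of 15 NK cell and cytotoxic granule genes was called (median -0.22), with -0.11 for Gzmb, granzyme B, and -0.03 for Prf1, perforin.

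Genes of antigen presentation on MHC class II fell in 5 of 12 cases and all 12 differences were negative, with a median of -1.23. H2-Oa, a brake on peptide loading that B cells express, fell at least 3.65-fold from 6.80, 7.03 and 6.90 to 4.81, 5.14 and 5.17. H2-Ob, its partner chain, fell 2.38-fold from 6.32, 6.14 and 6.43 to 5.22, 5.17 and 4.75. These 2 held without any 1 mouse. H2-Aa, the classical alpha chain, fell 2.88-fold, H2-DMa 2.32-fold and the dim H2-Eb2 at least 1.74-fold, a call lost in each of the 5 fits without 1 mouse that tested it. The count was 2 without control mouse 1 or 11 or irradiated mouse 4 or 24, and 3 without control mouse 21. Cd74, the invariant chain, differed by -1.29 (adjusted p = 0.075) and Ciita, the master regulator, by -1.21 (adjusted p = 0.084). With the slide as a term none of the 5 was called and the difference of H2-DMa shrank to -0.36. Both 2 Gy mice on the controls' slide were nearer the 4 Gy mean in 3 of the 5.

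Myeloid and resident liver cells changed in single genes. Chil3 and Prtn3 were the 2 of 16 neutrophil genes that fell. Chil3, a chitinase-like protein of myeloid cells, fell at least 2.97-fold from 6.52, 6.69 and 6.02 to 4.81, 4.98 and 4.72, and Prtn3, a granule protease made in precursors, fell at least 2.38-fold. The call of Prtn3 was lost without control mouse 11 or irradiated mouse 4, the count of falls in the list ran from 1 to 3 without 1 mouse, and both calls were lost with an offset of 50. S100a8, an abundant cytosolic protein of mature neutrophils, had 1.21 (adjusted p = 0.057), so members of this list differed in sign, and its median was -0.04. Flt3 and Ccr9, 2 of 12 dendritic cell genes, fell at least 2.15-fold and 2.11-fold, and the count was 0 without control mouse 1 or irradiated mouse 4 or 14, and with an offset of 50. Of 16 Kupffer cell and macrophage genes, Cd207, langerin, fell 2.74-fold, a call lost without control mouse 11 or irradiated mouse 24. Clec4f, a Kupffer cell lectin, had -0.50 (adjusted p = 0.023) and Adgre1, a macrophage surface receptor, -0.15. Lyve1, a hyaluronan receptor of sinusoidal endothelium, rose 2.05-fold from 9.03, 9.16 and 9.31 to 10.22, 10.19 and 10.19 as the 1 call among 15 endothelial genes, and the call was lost without control mouse 1 or 11 or any 1 irradiated mouse. Acta2, smooth muscle actin, fell 2.19-fold from 11.25, 11.22 and 11.43 to 10.09, 10.28 and 10.13 as the 1 call among 15 stellate cell genes, while its other probes gave between -0.80 and -0.12. None of 11 monocyte genes (median -0.33) and none of 8 cholangiocyte genes (median -0.27) was called.

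**Figure D3:**
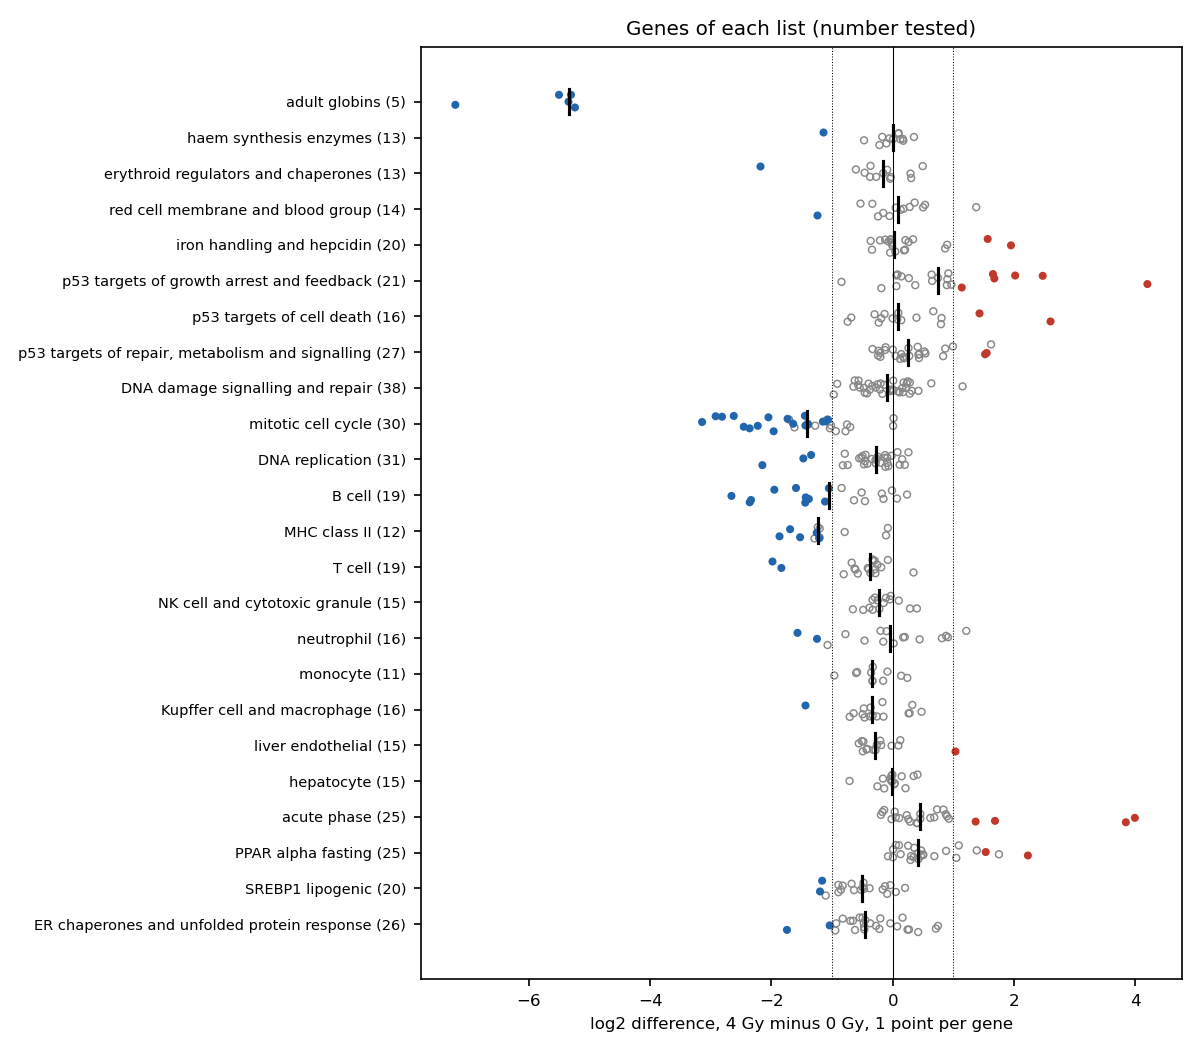
Each point is 1 gene of the list named at the left, placed by its log2 difference between 4 Gy and 0 Gy; filled points are called, blue for lower and red for higher, and the bar is the median of the list. The globins stand alone near -5, the medians of the mitotic, B cell and MHC class II lists lie at -1.42, -1.05 and -1.23, and the hepatocyte list is centred on 0.

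Hepatocyte identity genes did not pass the test. Of the 15 tested, none was called, and their median was -0.01. Cps1, which starts the urea cycle, differed by -0.16 and Ttr, a carrier of thyroid hormone, by -0.25. Apoa1, the main apolipoprotein of HDL, was the 1 member with an adjusted p below 0.05 (0.0084), at 17.02, 17.22 and 17.32 in the controls and at 16.57, 16.51 and 16.34 at 4 Gy, a difference of -0.71 under the fold threshold.

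Acute phase genes, which hepatocytes switch on when they sense inflammatory cytokines, rose in 4 of 25 cases and none fell. Saa1, serum amyloid A, was at 14.27, 13.78 and 13.77 in the controls and at 18.0003, 17.57 and 17.78 at 4 Gy, a 14.3-fold rise (log2 difference 3.84, SE 0.40, limma adjusted p = 0.00018). Saa2, its close paralog, whose probe may share signal, was at 13.59, 13.14 and 13.14 in the controls and at 17.36, 16.90 and 17.59 at 4 Gy, a 15.9-fold rise. Orm3, an orosomucoid, rose 2.58-fold from 11.81, 11.41 and 11.77 to 13.04, 13.07 and 12.98. In these 3 genes all irradiated mice lay above all controls, and both 2 Gy mice on the controls' slide lay nearer the 4 Gy mean. Cebpd, a transcription factor of the acute phase, rose 3.22-fold from 9.81, 9.49 and 9.78 to 11.37, 11.45 and 11.31. It differed from the others in the 2 Gy mice, which were at 9.60 and 10.41 on the controls' slide and at 11.18 on the second, and with slide fitted beside dose its difference shrank to 0.51. Serpina3n (0.92), Orm2 (0.87), Itih3 (0.83), Orm1 (0.45) and Itih4 (0.45) had adjusted p below 0.05 under the fold threshold, and 21 of the 25 differences were positive. Saa3 (0.62), Lcn2 (0.89), Fgb (-0.02) and Hp (0.26) did not pass. The 4 calls held without any 1 mouse.

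Few interferon-stimulated genes changed enough to be called. Isg15, a ubiquitin-like protein, fell 2.31-fold from 12.52, 12.25 and 12.12 to 11.10, 11.34 and 10.82, the 1 call among 23, and 19 of the 23 differences were negative (median -0.40). Rsad2, viperin, had -0.87 (adjusted p = 0.042). None of 20 chemokine and adhesion genes was called, with 1.26 for Cxcl1 at an adjusted p of 0.21.

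Genes of fat handling changed in both directions. In the list of fasting genes under PPAR alpha, Acot3 and Acot4 rose, 24 of 25 differences were positive and the median was 0.42. Acot3, a peroxisomal thioesterase, was at 9.98, 10.89 and 12.37 in the controls and at 13.19, 13.34 and 13.39 at 4 Gy. The controls spread over more than 2 units here, and the call of the 4.68-fold rise was lost without control mouse 1 or 11 or any 1 irradiated mouse. Acot4 rose 2.89-fold and lost its call in the same 5 cases. Cyp4a14 (1.38, adjusted p = 0.12) and Cpt1a (0.50, adjusted p = 0.096) did not pass. In the lipogenic list under SREBP1, 2 of 20 fell, 18 differences were negative and the median was -0.51. Srebf1, which encodes SREBP1 itself, fell 2.24-fold from 15.16, 15.13 and 14.63 to 13.80, 13.64 and 13.99, a call that held without any 1 mouse. Elovl6, a fatty acid elongase, fell 2.30-fold from 12.93, 12.63 and 12.09 to 11.43, 11.35 and 11.26, a call lost without control mouse 1 or 11 or any 1 irradiated mouse. Fasn, fatty acid synthase, had -0.90 (adjusted p = 0.14). In both lists 1 member or none lay nearer the 4 Gy mean in the 2 Gy mice on the controls' slide. None of 21 genes of cholesterol synthesis was called, and their median was -0.07.

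Of 25 lipid droplet and fatty acid transport genes, Vldlr rose and Fabp5 fell, and both calls held without any 1 mouse. Vldlr, which takes up triglyceride-rich lipoproteins, rose 3.74-fold from 8.11, 8.20 and 8.78 to 10.30, 10.18 and 10.33, with 1.61 by a second probe. Fabp5, an epidermal-type fatty acid binding protein, fell 4.18-fold from 12.85, 13.56 and 13.35 to 11.70, 11.12 and 10.75. The groups were apart in both. Plin2, which coats lipid droplets, differed by 0.16 and Cd36 by 0.02.

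Stress-responsive genes of the immediate early type varied widely between mice of the same dose. Gadd45g, a growth arrest gene, was at 9.85, 10.66 and 11.58 in the controls and at 12.62, 13.93 and 14.24 at 4 Gy, a 7.48-fold rise with an SE of 0.66 and an adjusted p of 0.027. Gadd45b rose 3.88-fold from 7.78, 8.28 and 8.97 to 9.82, 10.06 and 11.01. The groups did not overlap in either gene, but Gadd45g lost its call without control mouse 1 or 11 or irradiated mouse 14 or 24, and Gadd45b without control mouse 1 or 11 or irradiated mouse 24. Gadd45a, the family member known as a p53 target, differed by -0.08. The other 19 of 21 members did not pass, with 1.49 for Fos, whose level ran from 5.42 to 11.16 among the controls and from 6.67 to 12.09 among the irradiated mice. Of 19 genes under glucocorticoid control, Gadd45b, Per1 and Tsc22d3 rose. Tsc22d3, the leucine zipper GILZ, rose 2.11-fold from 13.09, 12.39 and 12.47 to 13.51, 13.76 and 13.91, although its other probes gave between 0.21 and 0.79. Per1, also a clock gene and the 1 call of 18 in that list, rose 2.11-fold from 11.66, 10.84 and 11.05 to 12.21, 12.34 and 12.24. It was at 11.32 and 11.40 in the 2 Gy mice on the controls' slide and at 11.98 in the mouse on the second, and with slide fitted beside dose its difference shrank to 0.46. Per1 lost its call without control mouse 11 or irradiated mouse 14, and Tsc22d3 without control mouse 11 or 21 or irradiated mouse 14 or 24.

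Hsd3b5, a steroid-metabolising enzyme of the liver, fell 18.1-fold. It was at 12.91, 12.62 and 12.38 in the controls and at 8.62, 8.24 and 8.52 at 4 Gy (log2 difference -4.18, SE 0.57, limma adjusted p = 0.0014). Slco1a1, an organic anion transporter, was at 13.15, 12.80 and 12.89 in the controls and at 10.14, 9.72 and 10.36 at 4 Gy, a 7.35-fold fall, with -2.98 by a second probe. Both calls held without any 1 mouse, and both 2 Gy mice on the controls' slide lay nearer the 4 Gy mean. These 2 genes are known to be higher in male than in female mouse liver under growth hormone control, and all mice here were female. Cux2, a repressor that is higher in female liver, rose 3.30-fold from 6.52, 7.76 and 7.74 to 9.49, 9.07 and 8.61, a call lost without irradiated mouse 4. In the growth hormone list of 23 genes, which holds Hsd3b5 and Cux2, 2 rose and 1 fell, and the median was 0.00. Igf1 had -0.49 (adjusted p = 0.027), Cyp2b9 0.67 (adjusted p = 0.015), Elovl3 -0.40 (adjusted p = 0.85) and Cyp2d9 -0.25 (adjusted p = 0.76).

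Of 32 solute carriers and transporters, 2 rose and 3 fell. Slc22a29 rose 3.17-fold from 6.60, 7.38 and 7.56 to 8.65, 8.98 and 8.89, and Slc22a27, of the same organic anion transporter cluster, rose 2.84-fold. Slc6a20a, an imino acid transporter, fell 3.04-fold from 6.46, 6.84 and 6.61 to 5.19, 4.98 and 4.92, and Slc16a6, a monocarboxylate transporter of the fasted liver, fell 2.31-fold. The call of Slc22a27 was lost without control mouse 1 or 11 or any 1 irradiated mouse, and the other calls, Slco1a1 included, held. The transporters that carry bile acids did not pass, with -0.06 for Abcb11 and -0.02 for Slc10a1, while Abcc3 (0.73), Abcg5 (0.60) and Abcb4 (0.60) had adjusted p below 0.05 under the fold threshold. Among 31 cytochrome P450 genes Cyp2j9 rose 2.16-fold and Cyp2u1 fell 2.18-fold, and the median was 0.06. Cyp2u1 lost its call without control mouse 1 or 11 or irradiated mouse 4. The major drug-metabolising forms Cyp2e1 (0.05), Cyp3a11 (0.75) and Cyp1a2 (-0.65) did not pass. None of 26 genes of phase II conjugation and the NRF2 response was called, with 0.90 for Nqo1 (adjusted p = 0.031). Their differences ran from -0.69 to 2.75 with a median of 0.20, and 18 were positive. The member with 2.75 was over the fold threshold but did not reach an adjusted p below 0.05. The study, which averaged the probes of a transcript, reports phase II genes with increased expression at the dose described here. That none was called here does not show that they did not rise.

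Chaperones of the endoplasmic reticulum were lower in 2 of 26 cases and 19 of the differences were negative, with a median of -0.46. Sdf2l1, which assists protein folding there, fell 3.35-fold from 12.21, 11.99 and 11.82 to 10.44, 10.27 and 10.07, a call that held without any 1 mouse. Calr, the calcium-binding chaperone calreticulin, fell 2.06-fold from 15.24, 15.31 and 15.19 to 14.24, 14.11 and 14.26, a call lost without irradiated mouse 14. Dnajb11 (-0.95), Creld2 (-0.93), Pdia6 (-0.70), Ddit3 (-0.55) and Pdia3 (-0.48) had adjusted p below 0.05 under the fold threshold. Hspa5, the chaperone BiP, differed by -0.21. For Sdf2l1 and Calr neither 2 Gy mouse on the controls' slide lay nearer the 4 Gy mean, whereas the 2 Gy mouse on the second slide did. None of 14 heat shock genes was called, and their median was -0.22.

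Some of the 15 largest rises and falls belonged to no list. Ccn2, a matricellular protein also called CTGF, rose 3.59-fold from 9.31, 8.32 and 8.57 to 10.85, 10.35 and 10.54. Atp8b5, a phospholipid flippase, rose 3.35-fold from 5.96, 6.37 and 6.29 to 7.88, 7.87 and 8.11. Separate groups were a condition for being among these largest changes. Ccn2 lost its call in 5 of the 6 fits without 1 mouse, all but that without control mouse 1. Atp8b5 lost it in all 6. Zdhhc22, a palmitoyl transferase, fell 6.87-fold from 8.51, 8.74 and 8.58 to 6.01, 5.60 and 5.86, and its call held without any 1 mouse and with slide fitted beside dose. Of 24 genes that the study names for 4 Gy in the liver, 10 were higher and 3 lower, a list chosen on these samples and so no independent evidence. The count of rises was 4 without control mouse 1 or 11 or irradiated mouse 24, 6 without irradiated mouse 4 or 14, and 3 with slide fitted beside dose. Beyond those given above these included Rcan2, a calcineurin inhibitor (log2 difference 1.41), and Wsb1, a ubiquitin ligase subunit (1.29). Both calls were lost without control mouse 1 or 11 or irradiated mouse 24, and that of Rcan2 also without irradiated mouse 4.

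The comparisons with the neighbouring doses, 8 Gy and 2 Gy, share the 4 Gy arrays with the comparison above. Between 8 and 4 Gy, whose 6 arrays all lay on the second slide, 2 of 38362 probes (0.00521%) were called, and 4041 (10.5%) had an unadjusted p below 0.05. They were the transcripts AK017113, at least 4.28-fold higher at 8 Gy, and ENSMUST00000188596.2, which was not well above background in any 8 Gy mouse, so no fold is given. Between 4 and 2 Gy, 0% of the probes were called by limma in the 6-group model and 4130 (10.8%) had an unadjusted p below 0.05, and 3 were called with the processed signal scaled to its 75th percentile. That count rose to 62 without 2 Gy mouse 23, to 27 without 2 Gy mouse 3 and to 70 with slide fitted beside dose, so it depended on which 2 Gy arrays were used.

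Among 0, 2, 4 and 8 Gy, the doses compared here, Cdkn1a and Phlda3 had their highest values at 8 Gy. Cdkn1a was at 10.04, 9.83 and 9.53 at 2 Gy and at 11.22, 11.79 and 11.82 at 8 Gy, against 10.62 to 10.68 at 4 Gy, so the 3 doses did not overlap, but neither step passed the test (adjusted p = 0.30 for 4 against 2 Gy and 0.26 for 8 against 4 Gy). Phlda3 likewise was at 9.47, 9.08 and 9.02 at 2 Gy and at 10.29, 10.56 and 10.73 at 8 Gy. Hbb-bt was at 5.89, 5.90 and 6.67 at 8 Gy, against 6.21 to 7.36 at 4 Gy. Saa1 was at 18.30, 18.08 and 18.34 at 2 Gy, above all 3 mice at 4 Gy, and its lowest value at 8 Gy was 17.76 against 17.57 at 4 Gy. Ddit4 was at 10.11, 10.25 and 10.20 at 2 Gy, inside the range of the controls, and at 11.58, 11.62 and 11.68 at 8 Gy (log2 difference of 4 over 2 Gy 1.92, adjusted p = 0.20). Gadd45g was at 12.51, 11.66 and 12.09 at 2 Gy and at 11.16, 12.31 and 13.20 at 8 Gy, so the 2 Gy mice lay below all 3 mice at 4 Gy while 1 of the 8 Gy mice lay within their range (log2 difference of 8 over 4 Gy -1.37, adjusted p = 0.48). None of the 30 genes with the largest changes had an adjusted p below 0.05 in either step, which does not show that the doses acted alike.

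**Figure D4:**
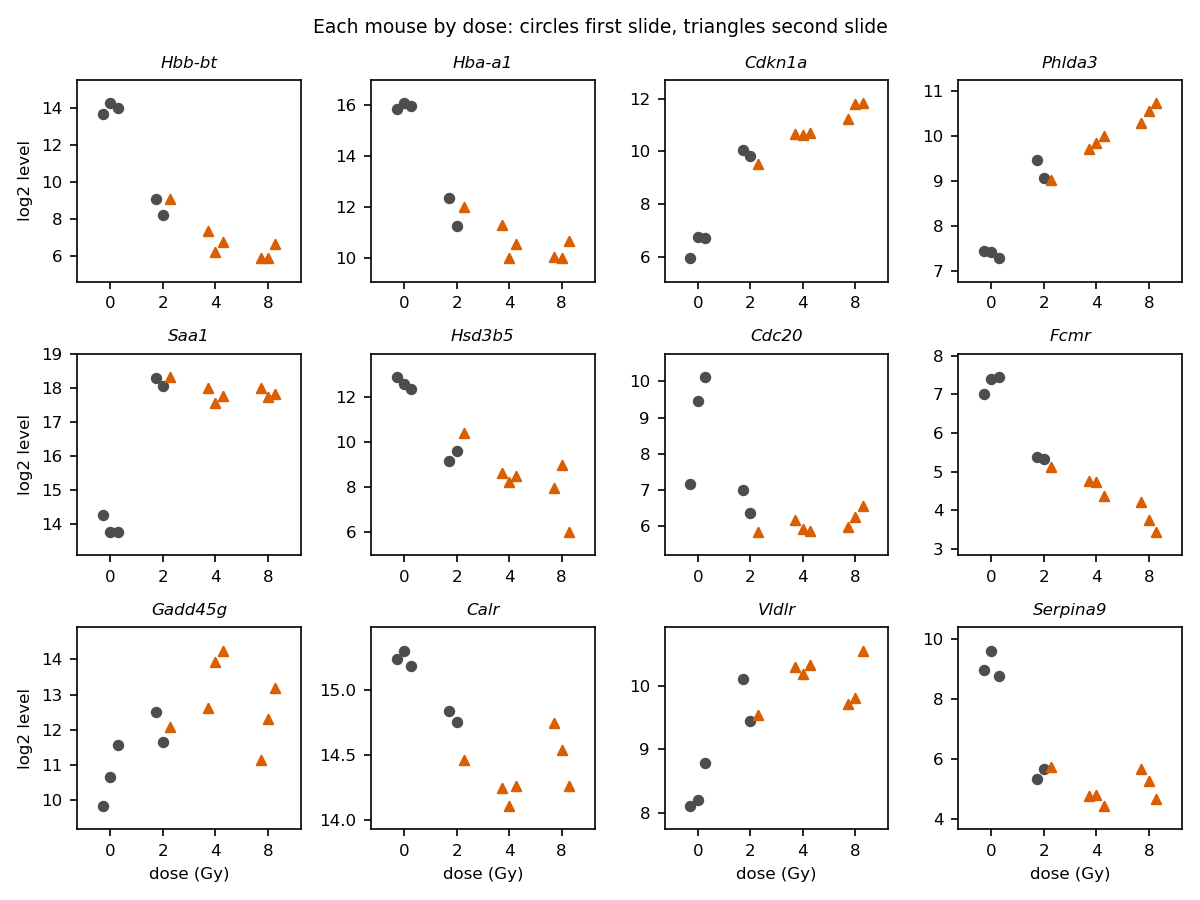
The log2 level of 12 genes is plotted for each mouse at 0, 2, 4 and 8 Gy (doses evenly spaced, not to scale), with circles for arrays on the first slide and triangles for those on the second. In Hbb-bt, Cdkn1a, Saa1 and Serpina9 the 2 Gy circles lie near the 2 Gy triangle and away from the controls, while in Calr they lie between the controls and the 4 Gy mice.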

How the data were processed

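Liver mRNA of 18 mice was measured on 1-colour Agilent arrays, and the 6 arrays at 4 and 0 Gy are described here beside those at 2 and 8 Gy. The authors scanned the arrays and extracted spot intensities with Agilent Feature Extraction (version not given in the sources used here), and the deposited values are median spot and background intensities. The authors' deposited series table of processed intensities served as an alternative, and 0 of its columns of other samples were left over. The background was corrected with normexp (offset 0), control spots were then dropped, outlier spots set to missing, and arrays normalized by quantiles over the 18 arrays on the log2 scale. Spots of a probe were averaged. A probe was tested if it was well above background on at least 1 array, which left 38362 of 56605 probes. A fit of 6 dose groups with limma 3.58.1 in R 4.3.3, with empirical Bayes moderation and Benjamini-Hochberg adjustment over all tested probes, gave every adjusted p. Calls required an adjusted p below 0.05 and a change of more than 1 log2 unit in either direction. The procedure was tested on simulated data with known changes.

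Symbols came from RefSeq through the transcript accession (25769 of the tested probes, 18164 genes), and a gene was represented by its brightest tested probe. Named genes were the 15 largest rises and falls among called genes with separate groups, called list members up to 6 by size in each direction, and uncalled members. The members and gene lists were chosen with earlier results of these data known, and the uncalled members and called members beyond the rule were picked after their values were seen. Some genes that the rule names are not reported here. A gene that was not well above background in any mouse of a group is given as "at least" a fold, against the higher of the lowest signal well above background and its own value. A call was recomputed without each mouse in turn, with other background corrections, scalings, filters and probe summaries, with only the arrays compared, and with slide as a term or block. The number of arrays limits the precision. Figures were drawn with matplotlib 3.10.9.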

Additional observations from a re-analysis of the deposited data

How the results depend on the processing

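Between 4 and 0 Gy, 362 probes were called, 239 lower and 123 higher. An offset of 50 in the background correction gave 219 calls with 136 lower, the processed signal scaled to its 75th percentile 547 with 248 higher, and the values of the authors' series table gave 230 higher. Slide as a fixed term gave 70 calls, 50 lower and 20 higher, and slide as a random block 71 higher. Leaving out 1 mouse gave 190 to 315 calls, 120 to 230 lower and 70 to 135 higher. The counts with no filter, a stricter filter, averaged probes or only the arrays compared were within 1.5 times the main ones. Of 103 called genes named or listed, 52 kept their call whichever mouse was left out and 5 lost it in every such fit that tested them, namely Atp8b5, Derl3, H2-Eb2, Smad7 and Zfp365, while none changed direction under any alternative. Called genes were chosen by size in these arrays and nearly all called probes had separate groups. The fits without 1 mouse could therefore hardly reverse a direction. With the offset of 50, 72 of the 103 kept their call.

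Between 8 and 4 Gy, 2 probes were called, with 1 from the series table, 6 with the stricter filter, 0 with only the arrays compared, 5 with slide as a fixed term, and 0 to 24 without 1 mouse (24 without 8 Gy mouse 25). Between 4 and 2 Gy, 0 probes were called, with 3 from the 75th percentile scaling, 3 from the series table, 1 with averaged probes, 70 with slide as a fixed term and 0 to 62 without 1 mouse. With only the second slide, an alternative chosen after seeing the data, 88 were called, and the lone 2 Gy array is assumed to vary like the other groups. The cause of these differences was not tested. No paired analysis was possible because each number names a separate mouse and the groups compared share none. Probes near background give only bounds that depend on the background correction, which holds for 86 of the 362 called probes in 1 of the groups.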
